A study of Mus musculus with 6 samples.

Results

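The cells described here are the pericyte candidates of the adult mouse uterine tube (oviduct), chosen by the genes detected in each cell barcode of droplet RNA sequencing (10x Genomics Single Cell 3' v2). A barcode with at least 500 UMIs (unique molecular identifiers, each counted as 1 RNA molecule) and at least 250 genes was kept when it held at least 2 of the 5 pericyte markers Rgs5, Kcnj8, Abcc9, Higd1b and Cspg4. It also had to hold fewer than 2 of the vascular smooth muscle markers Pln, S1pr3, Adra1a, Rcan2 and Kcnab1, fewer than 2 UMIs of the visceral smooth muscle gene Actg2, no UMI of the endothelial genes Pecam1 and Cldn5, and fewer than 3 UMIs over the epithelial genes Epcam, Krt7, Krt8 and Krt18. This rule kept 375 of the 19619 barcodes that passed the depth limits, 12 from the proximal and 363 from the distal section of the tube. The series holds 3 proximal libraries (numbered 2, 3 and 4) and 3 distal libraries (1, 2 and 3). All came from adult C57BL6 females in estrus, with no treatment or genetic change named in the labels. Each library pooled the tubes of a group of mice, so such a pool is the replicate behind each p-value. Tissue was minced, digested with collagenase, hyaluronidase, TrypLE and Dispase II, strained and cleared of dead cells, and what each step did to the yield of pericytes was not tested.

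Pericytes sit within the basement membrane of capillaries and small venules, where they touch the endothelium and regulate its stability and the calibre of the vessel. Endothelial PDGF-B recruits them through the receptor Pdgfrb, and Notch ligands on the endothelium act on their receptor Notch3. Of the markers used here, Rgs5 is a regulator of G-protein signalling, Kcnj8 and Abcc9 encode the pore and the sulfonylurea receptor of a vascular ATP-sensitive potassium channel, Higd1b is a mitochondrial protein of the hypoxia-induced gene domain family, and Cspg4 encodes the proteoglycan NG2. The oviduct also holds vascular smooth muscle around arterioles, a visceral muscle coat and stromal fibroblasts, which share genes with pericytes to different degrees.

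Library totals ran from 426707 to 5633091 UMIs in proximal libraries, with 327 to 1148 barcodes past the depth limits, and from 24175396 to 32488145 UMIs in distal ones, with 4339 to 7171 such barcodes. The median depth per barcode of proximal 2 lay within the distal range, and those of proximal 3 and 4 below it. The 363 distal barcodes that met the rule held medians of 2629.5, 5638 and 2853.5 UMIs in distal 1, 2 and 3. No such barcode shared its sequence with one that met the rule in another library, and 7 shared it with some other barcode of another library. Barcodes of high doublet score were kept, and they made up 21 of the 375 (5.6%), against 849 of all 19619 (4.33%). Distal 2 stood apart from the other distal libraries in which markers its barcodes carried, as described next.

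The 375 barcodes were not of 1 kind. A total of 170 (45.3%) held Rgs5 or Higd1b, and 205 (54.7%) held neither and so met the rule through Kcnj8, Abcc9 and Cspg4. The combination of Kcnj8 with Abcc9 and no other marker was the most frequent, with 170 barcodes, and Dcn, which encodes the fibroblast proteoglycan decorin, was detected in 94.1% of them, Pdgfra, a receptor of stromal fibroblasts, in 80.6%, Pdgfrb in 45.3%, Notch3 in 1.76% and Vtn, which encodes vitronectin, in 0. Among the 23 barcodes with all 5 markers, Vtn was detected in 91.3%, Notch3 in 87.0%, Pdgfrb in 95.7% and Dcn in 8.70%. A UMI of Pdgfra, Lum or Dpt was present in 23 of the 170 barcodes with Rgs5 or Higd1b (13.5%) and in 190 of the 205 with neither (92.7%). The label of pericytes therefore holds for part of these barcodes only, and the barcodes with neither gene carried a fibroblast profile. Depth differed as well, with distal medians of 1875.5 UMIs in the barcodes with Rgs5 or Higd1b and 4856 UMIs in those with neither. The distal barcodes with neither held 976638 of the 1358953 UMIs, and 528078 of 564977 in distal 2. Counts summed over all distal barcodes that met the rule therefore came mostly from those with neither.

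After each distal barcode was thinned to 1000 UMIs, Notch3 was detected in 49.2% of 132 barcodes with Rgs5 or Higd1b and in 0 of 198 with neither, which allows up to 1.52% of them with a UMI at this depth. At own depth it was in 67.1% with Rgs5 or Higd1b and in 1.51% with neither. Vtn gave 41.7% thinned and 53.0% unthinned with Rgs5 or Higd1b, and 0 on both counts with neither, which allows up to 1.51% of the 199 with a UMI at their own depth. Dcn gave 18.2% thinned and 20.7% unthinned with Rgs5 or Higd1b, and 78.8% thinned and 93.0% unthinned with neither. Leukocytes, which should lack these genes (238 barcodes, median 2146.5 UMIs), held Notch3 and Vtn in 0 and Dcn in 13.0%, so the Dcn share of barcodes with all 5 markers lay within the background. Notch3 and Vtn went with Rgs5 or Higd1b, and Dcn with their absence, at equal depth and at own depth. These subsets were drawn after their values had been seen, so no test is given for them.

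The libraries held these kinds in unequal numbers. Of the barcodes that met the rule, 3 of 7 in proximal 2, 0 of 0 in proximal 3 and 3 of 5 in proximal 4 held Rgs5 or Higd1b, and in the distal libraries 120 of 186, 12 of 101 and 32 of 76 did. Distal 2 had the lowest share among the distal libraries. It held 8 barcodes with at least 3 of the 5 markers, against 80 in distal 1 and 25 in distal 3.

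**Figure D1:**
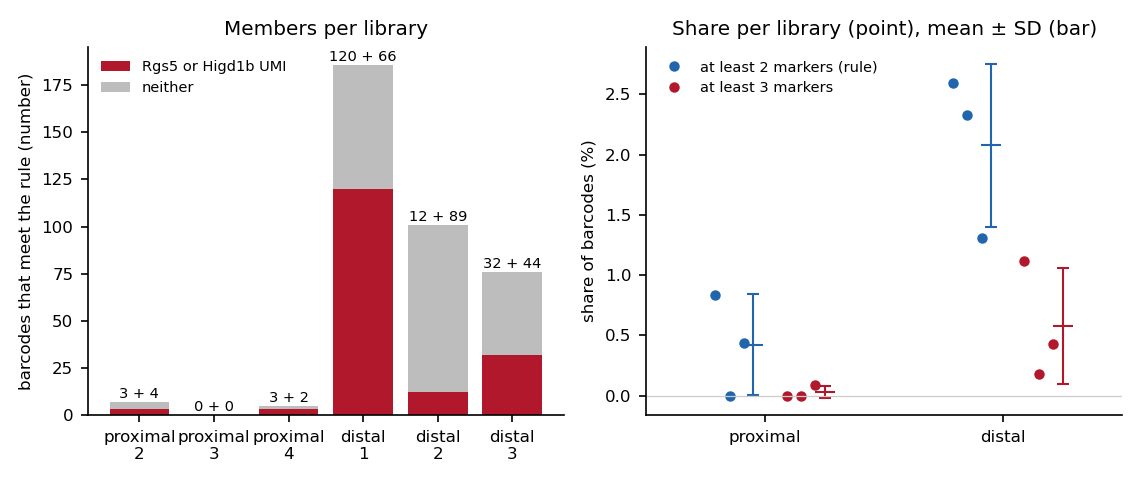
Left, number of barcodes that met the rule in each library (bars, proximal libraries left of distal ones), split into those with Rgs5 or Higd1b and those with neither. Right, share of all barcodes in percent, in 1 colour for the rule and another for at least 3 markers. Each colour has 1 point per library and the mean with its SD. The 101 barcodes of distal 2 are mostly without Rgs5 and Higd1b. By the rule, every proximal library lies at or under 0.837%, below all distal libraries.

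Levels of other genes differed with the number of markers. In distal barcodes that met the exclusions of the rule, the barcodes just outside the rule, with 1 marker (1647 barcodes, median 3869 UMIs), had 4.96 CPM (UMI counts per 1000000) of Notch3, those just inside, with 2 markers (250, median 4344 UMIs), had 61.0 CPM, and those with 3, 4 and 5 markers (54, 36 and 23 barcodes) had 677, 822 and 615 CPM. Pdgfrb, the PDGF-B receptor, had 180 CPM at 1 marker and 208, 912, 1161 and 1247 CPM at 2, 3, 4 and 5. Dcn had 4282 CPM at 1 marker and 3156, 822, 581 and 34.2 CPM at 2, 3, 4 and 5. For these genes the largest step in CPM between neighbouring numbers lay between 2 and 3 markers, and Notch3 was lower at 5 markers than at 4. Other genes differed in this: Ndufa4l2, a mitochondrial subunit, had 121, 786, 1556 and 2101 CPM at 2, 3, 4 and 5 markers, with its largest step between 3 and 4, and Vtn had 39.1, 271, 657 and 1503 CPM, with its largest step between 4 and 5. The rule selects barcodes, so these levels are a description without a test.

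**Figure D2:**
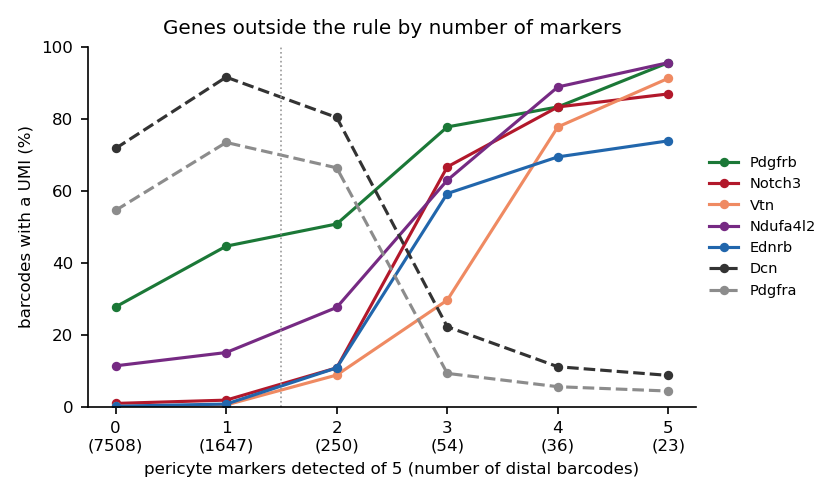
Percent of distal barcodes with at least 1 UMI (vertical axis) of 5 mural genes and 2 fibroblast genes against the number of pericyte markers detected, 0 to 5 (horizontal axis); the dotted line marks the limit of the rule. Notch3 was detected in 10.8% of barcodes with 2 markers and 66.7% with 3, and Pdgfra in 66.4% with 2 markers and 9.26% with 3.

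Kcnj8 and Abcc9 were also detected outside the rule, in fibroblasts and in muscle. The fibroblast class of the distal libraries (5928 barcodes, median 3704 UMIs) holds none of the barcodes that met the rule and, by its definition, no barcode with both genes. Kcnj8 was in 5.23% of it, Abcc9 in 14.8%, Rgs5 in 0.607% and Higd1b in 0.0506%. Distal epithelial barcodes, which should lack these genes and were deeper (median 5823.5 UMIs), held Kcnj8 in 2.54%, Abcc9 in 1.80%, Rgs5 in 0.861% and Higd1b in 0.164%. The fibroblast shares of Rgs5 and Higd1b were therefore at the background, and those of Kcnj8 and Abcc9 lay above it. After thinning to 1000 UMIs, Kcnj8 was in 1.76% of fibroblasts and 0.497% of epithelial barcodes, and Abcc9 in 4.95% of fibroblasts and 0.104% of epithelial barcodes. Visceral smooth muscle held Kcnj8 in 32.3% and Abcc9 in 25.0% (median 4515.5 UMIs), and Rgs5 in 0.161%. Vascular-type smooth muscle (139 barcodes, median 3079 UMIs) held Rgs5 in 9.35%, Abcc9 in 11.5% and Kcnj8 in 2.16%.

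The promoters of the channel pair and of Rgs5 are shown because the channel genes were above the background in fibroblasts and visceral smooth muscle and Rgs5 was not. Among the protein-coding genes of RefSeq's GRCm38.p6 annotation, Kcnj8 and Abcc9 are neighbours on chromosome 6, consecutive in the order Ldhb, Kcnj8, Abcc9 and Cmas. The sequences run from 250 bases before to 50 bases after the annotated start, 5' to 3' on the gene's strand, and come from an older build than the mm39 reference named for the counts. Kcnj8 is at chr6:142571565-142571864 (minus strand), Abcc9 at chr6:142702225-142702524 (minus strand) and Rgs5 at chr1:169655251-169655550 (plus strand). Capitals mark TGGGAA, the core letters bound by the Notch effector Rbpj, searched on both strands. It was found once in Kcnj8 and once in Abcc9 and not in the Rgs5 window, and 25.6% of all 32851 promoters of this length hold it, so the match is a description only. The CArG box of serum response factor, which 1.63% of promoters hold, was in none of the windows.
Kcnj8: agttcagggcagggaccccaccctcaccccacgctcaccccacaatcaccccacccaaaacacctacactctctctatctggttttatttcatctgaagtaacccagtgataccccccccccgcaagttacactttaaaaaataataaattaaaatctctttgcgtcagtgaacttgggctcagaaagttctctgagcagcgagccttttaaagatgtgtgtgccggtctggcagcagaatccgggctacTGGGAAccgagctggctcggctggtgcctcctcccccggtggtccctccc
Abcc9: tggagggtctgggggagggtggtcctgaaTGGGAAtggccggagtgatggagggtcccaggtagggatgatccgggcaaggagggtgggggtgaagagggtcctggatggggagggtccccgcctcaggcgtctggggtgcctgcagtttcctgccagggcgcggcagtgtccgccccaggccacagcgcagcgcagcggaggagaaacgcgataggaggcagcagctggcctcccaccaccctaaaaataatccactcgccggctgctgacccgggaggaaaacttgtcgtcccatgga
Rgs5: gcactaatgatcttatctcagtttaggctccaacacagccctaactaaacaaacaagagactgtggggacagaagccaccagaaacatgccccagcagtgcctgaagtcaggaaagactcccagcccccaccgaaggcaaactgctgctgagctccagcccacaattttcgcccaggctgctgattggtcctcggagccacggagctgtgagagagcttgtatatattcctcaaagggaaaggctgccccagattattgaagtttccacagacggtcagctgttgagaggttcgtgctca

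Because barcodes with 2 markers were mixed, tests are given for all distal barcodes that met the rule and for those with at least 3 markers, called pericyte-like here. Genes were tested by edgeR's quasi-likelihood test on UMI counts summed per library and class, with the library as a block and the genes of all class rules left out, although tested genes can still vary with those in the rule. All 3 distal libraries entered the test of all barcodes. Distal 1 and 3 (n = 2) entered the test of pericyte-like barcodes, because distal 2 held only 8, and its levels are given beside them as a value outside the test. The 3 classes set against them were vascular-type smooth muscle (98, 18 and 23 barcodes in distal 1, 2 and 3), visceral smooth muscle (432, 63 and 125) and fibroblasts (1949, 2145 and 1834), each defined by its own markers. In the test of pericyte-like barcodes, the spread of a typical gene between pools was wholly replaced by a value shared over genes. P-values of that test therefore do not measure how much each gene varied between the pools. Levels are CPM of the summed counts.

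The rule genes themselves describe the pericyte-like barcodes. Rgs5 had 4702, 3166 and 3582 CPM in pericyte-like barcodes of distal 1, 2 and 3, against 157, 0 and 28.4 CPM in vascular-type smooth muscle and 4.31, 0.717 and 1.66 CPM in fibroblasts. Kcnj8 had 756, 659.5 and 716 CPM in pericyte-like barcodes, 10, 0 and 0 CPM in vascular-type smooth muscle and 106, 92.5 and 79.5 CPM in visceral smooth muscle. Higd1b had 1789, 2968 and 1509 CPM in pericyte-like barcodes and 3.35, 0 and 14.2 CPM in vascular-type smooth muscle. These levels follow from the choice of barcodes. Of the 5 endothelial markers Pecam1 and Cldn5 were at 0 by the rule, and the rest (Cdh5, Egfl7 and Flt1) summed to 121, 0 and 102 CPM in pericyte-like barcodes, against 0 in every library of vascular-type smooth muscle and 2.60 to 4.16 CPM in fibroblasts. All 5 summed to 6274, 6451 and 6496 CPM in blood endothelium. The part of endothelial RNA in the results on pericyte-like barcodes was not tested. Mesothelial markers were at 0. The 5 fibroblast markers summed to 301, 660 and 76.7 CPM in pericyte-like barcodes, 967, 3137 and 994 CPM in vascular-type smooth muscle and 3098, 2614 and 2904 CPM in fibroblasts, with no gene of the list at 0 in any of these.

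Against vascular-type smooth muscle, the nearest mural class, pericyte-like barcodes were higher in vitronectin, endothelin receptor B, the cation channel gene Trpc6 and the PDGF receptor, and lower in the smooth muscle contractile genes. Over all barcodes that met the rule, edgeR called 35 genes higher (0.402% of 8701) and 115 lower (1.32%) at an adjusted p under 0.05. Over pericyte-like barcodes it called 301 higher (3.56% of 8465) and 430 lower (5.08%). DESeq2 on the same pericyte-like counts, added after the data had been seen, called 152 of those 301 and 267 of those 430. Among the 12 largest of the 35 were Septin4 (log2 fold change 2.98 ± 0.52), Thy1 (2.82 ± 0.44), the G-protein subunit gene Gna14 (2.28 ± 0.43) and Ednrb (2.13 ± 0.38). Ptn (1.78 ± 0.38) was another, and its sign turned to -0.44 in pericyte-like barcodes. The 12 largest of the 115 included Sorbs2 (-5.12 ± 0.90), the inositol kinase gene Itpk1 (-3.49 ± 0.42), the calcium/calmodulin kinase gene Camk2g (-3.11 ± 0.46) and Myocd (-2.71 ± 0.51). The first set of calls depended on which libraries entered, with 0 genes called without distal 1 (485 at an unadjusted p under 0.05), 0 without distal 3 (934 unadjusted) and 724 without distal 2. In distal 2 the vascular-type class held 552 CPM of its own 5 markers, against 3506 CPM in distal 1 and 2697 CPM in distal 3, and the most fibroblast markers. Erythrocyte genes summed to 67.9, 66 and 205 CPM in pericyte-like barcodes and 2281, 123 and 38416 CPM in vascular-type smooth muscle of distal 1, 2 and 3, and the part of either in the result was not tested.

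Pericyte identity genes, a list of 30, were the group most often higher among the gene lists examined. Of the 28 tested, 18 were higher, 0 lower and 10 did not pass (median log2 fold change 1.57, against -0.01 over all genes). DESeq2 called 13 of the 18, and edgeR with all 3 libraries 14. That fit left out Agtr1a, Colec11 and Foxs1 through its filter on low counts, and did not call Postn. Counts from that fit take genes that its filter removed as not called. Pdgfrb had 1042, 1187 and 1202 CPM in pericyte-like barcodes and 227, 174 and 269.7 CPM in vascular-type smooth muscle (log2 fold change 2.00 ± 0.26, edgeR adjusted p = 8.6e-12). The groups did not overlap. Vtn, a matrix protein that binds integrins, had 756, 264 and 460.5 CPM in pericyte-like barcodes and 10, 0 and 14.2 CPM in vascular-type smooth muscle (log2 fold change 5.87 ± 0.47, edgeR adjusted p = 3.6e-32), again without overlap. Ndufa4l2 and Cox4i2, alternative mitochondrial electron-transport subunits known to be induced by low oxygen in other cells, were higher by log2 fold changes of 3.09 and 3.80, whereas the common subunit Ndufa4 was lower (log2 fold change -1.07 ± 0.32, edgeR adjusted p = 0.0127). Ebf1, a transcription factor, was higher at 3689, 4485 and 4042 CPM in pericyte-like barcodes against 1448, 848 and 1008 CPM in vascular-type smooth muscle (log2 fold change 1.41 ± 0.24, edgeR adjusted p = 6.1e-07). Mcam (CD146), Rgs4, the connexin gene Gja4 and the Notch target Heyl did not pass, with log2 fold changes of -0.08, -0.03, 0.87 and -0.23.

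In the Notch pathway, 1 of 11 tested genes was higher, the receptor Notch3, and 1 lower, the target Hes1, which was not called with all 3 libraries. Over all tested genes 3.56% were higher and 5.08% lower, so these counts do not set the pathway apart as a group (median log2 fold change -0.13). Notch3 had 683, 857 and 819 CPM in pericyte-like barcodes and 335, 30.7 and 227 CPM in vascular-type smooth muscle (log2 fold change 1.06 ± 0.24, edgeR adjusted p = 3.7e-04; DESeq2 adjusted p = 0.0495). The lowest pericyte-like library lay above every vascular-type library. Of 13 tested PDGF, angiopoietin and VEGF genes, Pdgfrb was higher and 2 lower. The ligands that act on these receptors were found in blood endothelium, where Pdgfb had 141, 123 and 135 CPM and the Notch ligand Dll4 158, 123 and 212 CPM in distal 1, 2 and 3. Pdgfb was at 0, 0 and 0 in pericyte-like barcodes.

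Receptors and channels that set vessel tone moved in both directions. Of 15 tested vasoactive receptors, 4 were higher (Ednra, Ednrb, Agtr1a and Npr3) and 1 lower (Ramp1, a subunit of the CGRP receptor). Ednrb, an endothelin receptor, had 1124, 528 and 1023 CPM in pericyte-like barcodes and 107, 0 and 56.8 CPM in vascular-type smooth muscle (log2 fold change 3.38 ± 0.28, edgeR adjusted p = 2.9e-29). Ednra, the other endothelin receptor, differed less (log2 fold change 0.99 ± 0.29, edgeR adjusted p = 0.00935; DESeq2 adjusted p = 0.0857). Agtr1a, the angiotensin II receptor, had 36 UMIs in pericyte-like barcodes against 2 in vascular-type smooth muscle, a ratio of pooled CPM of 27.1 with a counting interval of 6.98 to 232. Agtr1a and Npr3 were not tested with all 3 libraries, where the filter on low counts removed them. Ednrb did not overlap between the classes, and the call of Ednra was lost under DESeq2.

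Of 32 tested channel and junction genes, 6 were higher and 7 lower, of which DESeq2 called 4 and 7 and the fit with all 3 libraries 5 and 3. Trpc6, a receptor-operated cation channel, had 829, 923 and 998 CPM in pericyte-like barcodes and 66.9, 10.2 and 14.2 CPM in vascular-type smooth muscle (log2 fold change 3.80 ± 0.32, edgeR adjusted p = 5.0e-29). Ano1, a calcium-activated chloride channel, and Kcnq5, a voltage-gated potassium channel, were also higher, with log2 fold changes of 2.22 and 2.73. Kcnma1, the pore of the large-conductance calcium-activated potassium channel, and Itpr1, an inositol trisphosphate receptor, were lower, with log2 fold changes of -3.91 and -1.48. The L-type calcium channel gene Cacna1c did not pass (log2 fold change 0.57 ± 0.26, edgeR adjusted p = 0.184). The soluble guanylate cyclase subunit Gucy1b1, which makes cGMP in response to nitric oxide, was higher (log2 fold change 1.78 ± 0.31, edgeR adjusted p = 1.0e-06), while its partner Gucy1a1 did not pass (log2 fold change 0.58 ± 0.28, edgeR adjusted p = 0.223). The direction in the cyclic nucleotide and RGS list was mixed, with 4 of 20 tested genes higher, Rgs16 (log2 fold change 3.05) and Pde8b (3.09) among them, and 3 lower.

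The contractile genes were the list most often lower. Of 22 tested, 20 were lower, 0 higher and 2 did not pass (median log2 fold change -1.74), and DESeq2 called all 20, but edgeR with all 3 distal libraries called 9. Acta2, smooth muscle alpha-actin, had 1619, 659.5 and 1177 CPM in pericyte-like barcodes, 7556, 1042 and 5011 CPM in vascular-type smooth muscle and 11975, 12830.3 and 9438 CPM in visceral smooth muscle (log2 fold change -2.36 ± 0.23, edgeR adjusted p = 2.4e-21 against the vascular class; adjusted p = 0.0595 with all 3 libraries). Distal 2 of the vascular class, at 1042 CPM, overlapped the pericyte-like range and the other libraries did not. Myocd, the coactivator that drives smooth muscle genes, had 19.4, 0 and 25.6 CPM in pericyte-like barcodes and 251, 20.4 and 156 CPM in vascular-type smooth muscle (log2 fold change -3.63 ± 0.52, edgeR adjusted p = 6.3e-10). Myocd overlapped through distal 2 of the vascular class only. Tpm2, a tropomyosin, had a log2 fold change of -1.68 and Sorbs2, a scaffold of actin attachment sites, -4.77. The visceral smooth muscle markers of the class rules summed to 1086, 462 and 1023 CPM in pericyte-like barcodes and 4422, 501 and 3066 CPM in vascular-type smooth muscle, and their part in these calls was not tested. Over all barcodes that met the rule, 5 of the 22 were lower and 0 higher.

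Matrix genes split by chain. Of 22 tested basement membrane genes, 4 were higher and 4 lower, of which DESeq2 called 3 and 4 and the fit with all 3 libraries 3 and 2. The collagen IV chain genes Col4a1 and Col4a2 were among the higher, and the chain gene Col4a5 among the lower. Col4a2 had 906, 989 and 998 CPM in pericyte-like barcodes and 308, 368 and 241 CPM in vascular-type smooth muscle (log2 fold change 1.52 ± 0.27, edgeR adjusted p = 1.8e-06). Col4a1 had a log2 fold change of 1.41. Lama5, the laminin alpha-5 chain, was lower, at -2.09, and Hspg2 and Sparcl1 were the other lower genes. Col4a5 and Sparcl1 were not called with all 3 libraries. Neither Col4a1 nor Col4a2 overlapped between the classes. Among 24 interstitial matrix genes, 3 were higher and 5 lower, with Dcn among the lower at 533, 528 and 716 CPM in pericyte-like barcodes and 3031, 5977 and 1462 CPM in vascular-type smooth muscle (log2 fold change -2.15 ± 0.50, edgeR adjusted p = 0.0181) and elastin at a log2 fold change of -2.33. Of these, DESeq2 called 2 higher and 5 lower, and the fit with all 3 libraries 1 higher and 4 lower. A UMI of Pdgfra, Lum or Dpt was present in 38.1% of the 139 distal vascular-type barcodes and 7.96% of the 113 distal pericyte-like ones. The part of fibroblast RNA in the vascular-type class in these calls was not tested.

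Of 14 tested chemokine and cytokine genes, 4 were higher and 1 lower. Ccl2, Ccl11 and Cxcl1, which made up the higher genes together with Il34, were called neither by DESeq2 nor with all 3 libraries. Il34, a ligand of the macrophage CSF1 receptor, had 383, 462 and 563 CPM in pericyte-like barcodes and 63.6, 0 and 85.2 CPM in vascular-type smooth muscle (log2 fold change 2.47 ± 0.35, edgeR adjusted p = 3.4e-10). Cxcl12, a stromal chemokine, was lower at 82.4, 132 and 76.7 CPM in pericyte-like barcodes, against 438, 899 and 269.7 CPM in vascular-type smooth muscle (log2 fold change -2.40 ± 0.38, edgeR adjusted p = 2.7e-08). Neither gene overlapped between the classes. The part of fibroblast RNA in the vascular-type class in the Cxcl12 result was not tested. Of 22 immediate-early and heat shock genes, which can mark stress during dissociation, 2 were higher and 6 lower. The fit with all 3 libraries called 1 of these each way. Of 10 tested steroid receptor and hormone-axis genes 0 were higher and 1 (Igfbp5) lower, too few to set this list apart from all tested genes (3.56% higher, 5.08% lower). Esr1, the estrogen receptor, had 523, 462 and 1228 CPM in pericyte-like barcodes.

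Some of the largest differences rested on few UMIs in vascular-type smooth muscle. Kirrel3, an adhesion molecule, and Kcnd2, a voltage-gated potassium channel, each had 45 UMIs in pericyte-like barcodes of distal 1 and 3 and 0 in vascular-type smooth muscle, which is at least 22.6-fold higher in CPM against 3 counts over that class. Pcdh19, a protocadherin, had 47 UMIs in pericyte-like barcodes against 1 in vascular-type smooth muscle, a ratio of pooled CPM of 70.7 with a counting interval of 12.1 to 2853. In the other direction Tesc was at 0 in pericyte-like barcodes, at least 10.4-fold lower, and Tcf15 at least 6.64-fold lower. Intervals cover counting error only.

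Against visceral smooth muscle, the muscle coat that moves the tube, differences were more frequent. Over all barcodes that met the rule edgeR called 1091 genes higher (12.5%) and 807 lower (9.27%), and over pericyte-like barcodes 726 higher (8.58%) and 761 lower (8.99%). Without distal 1 the first test called 851 genes in all. Among the 12 largest over all barcodes that met the rule were Ndufa4l2 (6.85), Septin4 (5.93) and Il34 (5.87), all log2 fold changes, and the lowest included the ryanodine receptor gene Ryr3 (-5.25) and cardiac troponin T, Tnnt2 (-5.29). Of 28 tested pericyte identity genes 24 were higher and 1, Postn, lower (median log2 fold change 4.89, against -0.10 over all genes). Ndufa4l2 had 1367, 1649 and 1151 CPM in pericyte-like barcodes and 1.83, 5.96 and 5.42 CPM in visceral smooth muscle (log2 fold change 8.69 ± 0.36, edgeR adjusted p = 1.3e-123). The groups were far apart in every library. Ednrb had 272 UMIs in pericyte-like barcodes against 1 in visceral smooth muscle, a ratio of pooled CPM of 3043 with a counting interval of 542 to 120623. Notch3 and Pdgfrb had log2 fold changes of 6.51 and 5.12, and 7 of 11 tested Notch genes were higher and 1 lower.

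Contractile genes were lower in 18 of 22 against visceral smooth muscle and higher in 2 (Map3k7cl and Filip1l). Acta2 had a log2 fold change of -3.21 and Tagln, an actin-binding protein of smooth muscle, -3.18, at 1333, 329.8 and 460.5 CPM in pericyte-like barcodes against 9160.3, 5595 and 4529 CPM in visceral smooth muscle. Of the steroid-axis genes, Esr1, Pgr, Greb1, Igf1 and Igfbp5 were lower and Igfbp7 higher. Esr1 had 523, 462 and 1228 CPM in pericyte-like barcodes and 1159, 928 and 1269 CPM in visceral smooth muscle (log2 fold change -0.93 ± 0.26, edgeR adjusted p = 0.00282; DESeq2 adjusted p = 0.0663). The Esr1 levels overlapped between the classes. Igf1, a growth factor that estrogen induces in the uterus, had a log2 fold change of -3.76. Adgrd1, an adhesion G-protein-coupled receptor, was at 0 in pericyte-like barcodes, at least 29.0-fold lower than in visceral smooth muscle.

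Against fibroblasts, all barcodes that met the rule had few differences and the pericyte-like ones had many. Over all of them edgeR called 111 genes higher (1.28%) and 28 lower (0.322%), and over pericyte-like barcodes 666 higher (7.87%) and 783 lower (9.25%). In the first test 12 of 26 tested pericyte identity genes were higher and 0 lower, with Notch3 at a log2 fold change of 5.50 ± 0.32 (edgeR adjusted p = 1.3e-08), and its lower genes had small changes, such as Apoe at -1.18 and Icam1 at -1.07. This test called 10 genes without distal 1, 687 without distal 2 and 17 without distal 3. In the second, 25 of 28 identity genes were higher and 0 lower (median log2 fold change 3.55, against -0.03 over all genes).

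Notch3 had 683, 857 and 819 CPM in pericyte-like barcodes and 4.16, 1.52 and 4.42 CPM in fibroblasts (log2 fold change 7.17 ± 0.28, edgeR adjusted p = 6.9e-143). Ednrb had 272 UMIs in pericyte-like barcodes against 3 in fibroblasts, a ratio of pooled CPM of 4581 with a counting interval of 1551 to 22350.1. Trpc6 and the adhesion molecule Mcam had log2 fold changes of 8.20 and 5.37, and Pdgfrb, found in fibroblasts at 209, 126 and 189 CPM, 2.25. These genes did not overlap between the classes in any distal library. Contractile genes were higher in 12 of 22 and lower in 0, and 6 of the 12 were called with all 3 libraries, with Acta2 at 1619, 659.5 and 1177 CPM in pericyte-like barcodes and 313, 317 and 287 CPM in fibroblasts (log2 fold change 1.97 ± 0.23, edgeR adjusted p = 1.0e-15; adjusted p = 0.113 with all 3 libraries). Interstitial matrix genes were lower in 20 of 24 and higher in 3 (Timp3, Adamts1 and Postn). Dcn had 533, 528 and 716 CPM in pericyte-like barcodes and 6309.9, 4007 and 5881 CPM in fibroblasts (log2 fold change -3.56 ± 0.51, edgeR adjusted p = 3.1e-04), and Col1a1, the collagen I alpha-1 chain, 1269.9, 1253 and 512 CPM in pericyte-like barcodes and 4554, 5163 and 4642 CPM in fibroblasts (log2 fold change -2.43 ± 0.25, edgeR adjusted p = 6.3e-20).

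**Figure D3:**
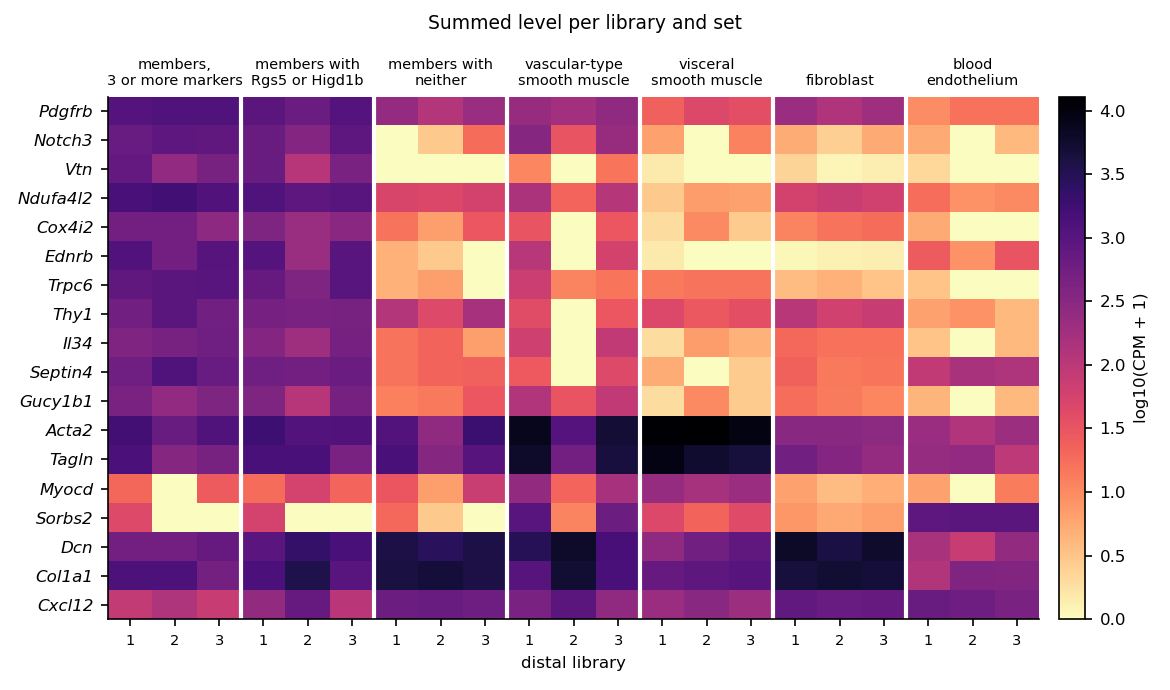
Levels as log10(CPM + 1) of 18 genes (rows) in 7 sets of barcodes, each in distal 1, 2 and 3 (columns). The sets with at least 3 markers and with Rgs5 or Higd1b carry Notch3, Vtn and Ednrb; the set with neither gene carries Dcn and Col1a1 near the level of fibroblasts.

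**Figure D4:**
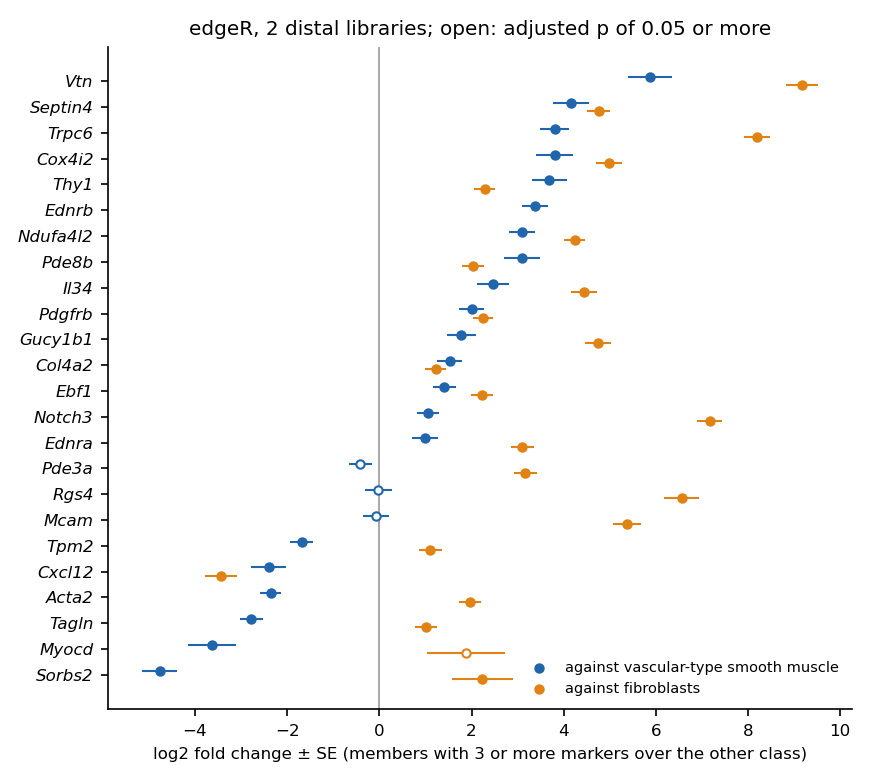
Log2 fold change of barcodes with at least 3 markers (horizontal axis, points with 1 SE from edgeR, distal 1 and 3) against vascular-type smooth muscle and against fibroblasts, for 24 genes; open points did not pass an adjusted p of 0.05. Vtn, Ednrb and Trpc6 lie to the right against vascular-type smooth muscle and Acta2 and Myocd to the left, while Acta2 lies to the right against fibroblasts; the value of Ednrb against fibroblasts is left out because it rests on 3 UMIs in fibroblasts.

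Genes higher than in all 3 other classes were counted at a mean of at least 100 CPM, without mitochondrial, ribosomal and unnamed predicted genes. With an adjusted p under 0.05 in each comparison, 3 of 8701 tested genes qualified over all barcodes that met the rule (Septin4, Ednrb and Thy1). Over pericyte-like barcodes 141 of 8465 did. Genes at lower levels that passed all 3 tests are not in these counts. Septin4, a septin of the cytoskeleton, had 562, 1187 and 691 CPM in pericyte-like barcodes, 26.8, 0 and 42.6 CPM in vascular-type smooth muscle, 4.11, 0 and 1.81 CPM in visceral smooth muscle and 22.1, 13.3 and 14.2 CPM in fibroblasts (log2 fold change 4.16 ± 0.39, edgeR adjusted p = 1.2e-23 against the vascular class). Thy1 (CD90), also a surface protein of fibroblasts, had 538, 923 and 537 CPM in pericyte-like barcodes, 40.1, 0 and 28.4 CPM in vascular-type smooth muscle, 44.7, 26.8 and 36.1 CPM in visceral smooth muscle and 106, 60.7 and 76.1 CPM in fibroblasts. Both genes lay above the 3 other classes in each distal library. The 20 such genes with the largest margin in pericyte-like barcodes included Vtn, Septin4, Art3, Trpc6, Cox4i2 and Ednrb. Emcn and Apold1 were also among the 20, and blood endothelium held 871, 733 and 779 CPM of Emcn and 419.6, 324 and 518 CPM of Apold1.

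The share of barcodes that met the rule was lower in the proximal libraries but the design could not reach significance. It was 0.837% in proximal 2 (exact Clopper-Pearson 95% interval 0.337 to 1.72%), 0 of 327 in proximal 3 (0 to 1.12%, or up to 0.917% by the limit of 3 counts), and 0.436% in proximal 4 (0.142 to 1.01%). In distal 1, 2 and 3 it was 2.59% (2.24 to 2.99%), 2.33% (1.90 to 2.82%) and 1.31% (1.03 to 1.64%). The sections did not overlap, and the mean was 0.424% ± 0.419 in proximal and 2.08% ± 0.677 in distal libraries (SD, n = 3 each; difference -1.65 percentage points, two-sided exact permutation p = 0.1, the smallest p that 3 against 3 can give). The difference was -0.548 for barcodes with at least 3 markers and -0.604 after every barcode was thinned to 500 UMIs. For barcodes with Rgs5 or Higd1b it was -0.627 (exact permutation p = 0.2), and the sections overlapped. Proximal 2 held 0.359% of these (3 barcodes), above distal 2 at 0.277% (12 barcodes). After thinning to 500 UMIs, barcodes with Rgs5 or Higd1b reached at most 0.174% in proximal libraries (2 barcodes of proximal 4). The lowest distal share was then 0.184% (8 barcodes of distal 2). At 1000 UMIs the sections overlapped, with proximal 2 at 0.274% and distal 2 at 0.145%. Both the size of the difference and the separation of the sections therefore depended on the kind of barcode and on depth. Median depths were 3360, 733 and 1083 UMIs in proximal 2, 3 and 4 and 3407, 4651 and 2979.5 UMIs in distal 1, 2 and 3.

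The 12 proximal barcodes were too few for a test of genes, so their pooled counts are given with exact Poisson 95% intervals, which cover counting error only. Rgs5 had 14 UMIs and 297 CPM (162 to 498) in proximal barcodes, against 1486 UMIs and 1093 CPM (1039 to 1151) in distal ones. Notch3 had 106 CPM (34.4 to 248) in proximal and 186 CPM (164 to 211) in distal barcodes, so their intervals overlapped. Dcn had 7042 CPM (6305 to 7842) in proximal and 2659 CPM (2573 to 2747) in distal barcodes, and Lum, another proteoglycan of fibroblasts, had 2270 CPM (1860 to 2743) in proximal and 559 CPM (519 to 600) in distal barcodes. Rgs5 was one of the genes that chose the barcodes, and the proximal counts come from 7 barcodes of proximal 2 and 5 of proximal 4, so these levels compare pooled barcodes and not the sections. The make-up of these 12 barcodes, 6 of them with Rgs5 or Higd1b, cannot be told apart from a difference between the sections.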

How the data were processed

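Droplet RNA libraries of 3 proximal and 3 distal sections of mouse uterine tube were used. Deposited values are UMI counts per gene and barcode, 1 matrix per library, without normalization. Reads had been counted with Cell Ranger, as version 7.0.0 per the file headers and as version 6.1.2, on mm39, per the submitters' processing notes. Per-library totals of these deposited counts ran from 426707 to 32488145 UMIs over 50559 genes, and 19619 of 20731 barcodes had at least 500 UMIs and 250 genes.

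Barcodes were classed by marker rules. Barcodes of the 0.8% highest doublet score per 1000 barcodes and those above 20% mitochondrial UMIs were kept, and removing them was an alternative. Counts were summed per library and class where each class held at least 10 barcodes, filtered by edgeR's filterByExpr (a count of 10, a total of 15), scaled by TMM and tested with edgeR 4.0.16 (quasi-likelihood, Benjamini-Hochberg adjustment over all tested genes, 4 classes in 1 fit, library as a block) in R 4.3.3. The 33 genes of the class rules were left out of the tests. Pairing by library needs no check, because classes of 1 library come from the same pool of mice. DESeq2 1.42.0 was an alternative. Sums, thinning, exact intervals and the permutation test used Python 3.11.15 with numpy 2.4.6, pandas 2.3.3 and scipy 1.17.1. The tests were checked on simulated counts before use. Of 100 genes simulated with a log2 fold change of 1 in either direction, the fit of barcodes with at least 3 markers recovered 35 against each muscle class. Against fibroblasts it recovered 49, so a gene that did not pass may still differ. The simulated libraries differed only in depth and random spread, so the library block was not checked.

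The barcodes, gene lists and tests were chosen with earlier results of these data known. Genes were named by a rule: per comparison the 12 largest changes each way with adjusted p under 0.05, the same sign in every library and a mean of at least 100 CPM in the higher class, without rule, mitochondrial, ribosomal and unnamed predicted genes; the 20 with the largest margin over all 3 classes; and members of the fixed lists. Its use on barcodes with at least 3 markers was decided after their values were seen. No gene test between sections was made, because no proximal library held 10 such barcodes. Promoters came from RefSeq's GRCm38.p6 table, which matched 4 of the 5 markers. Some list members are not reported here.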

Additional observations from a re-analysis of the deposited data

How the results depend on the processing

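Both the number of calls and the members behind them depended on which barcodes were taken. Against vascular-type smooth muscle, 150 genes were called by edgeR; there were 462 without a filter on low counts, 6 with no replicate block, 731 with at least 3 markers and 684 without barcodes holding Pdgfra, Lum or Dpt, and leaving out 1 library gave 0 to 724. Against visceral smooth muscle, 1898 were called, and leaving out 1 library gave 851 to 1905. Against fibroblasts, 139 were called; there were 434 without a filter, 29 with no replicate block, 1449 with at least 3 markers, 46 with fibroblast counts thinned to the same total and 1621 without barcodes holding Pdgfra, Lum or Dpt, and leaving out 1 library gave 10 to 687. With at least 3 markers, settings chosen after seeing the data gave, against vascular-type, visceral and fibroblast classes in that order, 428, 1031 and 985 genes by DESeq2, 539, 1255 and 1170 with no replicate block and 401, 1109 and 1054 with all 3 distal libraries; leaving a library out of this fit leaves 1 and was not run. Of the genes higher against vascular-type smooth muscle over all barcodes, 20 (57.1%) were also higher with at least 3 markers, 6.64% of that longer list. DESeq2, its size factors, the fit of each pair of classes, removal of doublets and the mitochondrial limit kept each total within 1.5 times. Counts in 1 direction moved more: against vascular-type smooth muscle, 35 higher genes became 61 without doublets and 115 lower genes 180 by DESeq2, and against fibroblasts 28 lower genes became 59 in the fit of that pair and 18 by DESeq2. Ptn reversed against vascular-type smooth muscle, to -0.44 with at least 3 markers, -0.18 without barcodes holding Pdgfra, Lum or Dpt, and -0.51, -0.47 and -0.66 with at least 3 markers by DESeq2, with no replicate block and with 3 libraries; Adgrl3 reversed to -0.34 without those barcodes and to -0.047 with 3 libraries. The causes were not tested.

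The difference in share between proximal and distal libraries, -1.65 percentage points, was -0.548 with at least 3 markers, -0.604 after thinning to 500 UMIs and -0.682 after thinning to 1000 UMIs, and leaving out 1 library gave -2.04 to -1.39. Chosen after seeing the data, it was -0.627 with Rgs5 or Higd1b, -0.554 and -0.565 for these after thinning to 500 and 1000 UMIs, and -0.626 without barcodes holding Pdgfra, Lum or Dpt. In that last setting (exact permutation p = 0.3), proximal 2 at 0.239% and proximal 4 at 0.261% lay above distal 2 at 0.184%. The difference between sections was negative in all of these settings. Paired over title numbers 2 and 3 as a replicate block, the difference over all barcodes that met the rule was -1.40, without a test. The sample descriptions number the third distal library 4, so this pairing is uncertain. The alternatives for a gene test between sections were not run, since that test was not made. In the proximal section 12 barcodes met the rule, too few for a gene test.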
